A study of Mus musculus with 8 samples.

Results

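Interferon-stimulated genes of the femoral and tibial periosteum were followed cell class by cell class in mice on a normal diet (ND) or a high fat diet (HFD). The set was a list of 42 gene symbols, taken as given and not chosen by a difference between the diets. Of these, 40 could be measured among 32285 listed genes. Mx1 and Mx2 were not analysed here. Male C57BL/6J mice, 16 weeks old, had been on either normal diet chow or high fat diet chow since 4 weeks of age, and the labels give no other treatment or allele. They name 4 samples per diet, and per diet 1 single-cell library of periosteal cells, released from whole bones with collagenase and dispase, was deposited as 1 matrix that does not tell the mice apart. With 1 library per diet no test between diets was possible, so levels and ratios are descriptions of these libraries, and the 95% intervals in brackets cover counting error only.

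Interferons are secreted when cells sense foreign or misplaced nucleic acid, or, in the case of interferon gamma, when T and NK cells are activated. Type I interferons bind a receptor present on nearly all nucleated cells and act through JAK kinases on a factor that holds STAT2 and IRF9 and binds the interferon-stimulated response element (ISRE), whereas interferon gamma acts on the gamma-activated site (GAS). The induced genes block viral entry, RNA stability and protein synthesis, tag proteins with ISG15, sense nucleic acid or feed back on the pathway. In bone, interferons are known to restrain osteoclast formation, and in bone marrow to act on blood stem cells and on the maturation of myeloid cells.

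RefSeq promoters of GRCm38.p6, from 250 bases before to 50 bases after each start, were held for 32 of the 42 genes and were searched on both strands for the ISRE core GAAANNGAAA and the palindromic GAS core TTCNNNGAA. The ISRE letters stood in 19 of these 32 genes (59.4%) and in 3.99% of 27025 genes with a promoter of the same length. Of genes called higher in more than 1 class, Irf7, Irf9, Ifit2, Oasl2 and Xaf1 had no ISRE core in this window, and no promoter was held for Ifi27l2a, Rtp4 and Parp14. The GAS letters were found in 9 (28.1%), against 9.55% of all genes. The following 30-base windows, each 5′ to 3′ on the gene's strand and upstream of its start, are shown for some of the genes whose promoter holds the ISRE core. Others, such as Trim30a and Slfn5, also hold it upstream of their start and are not shown. The core is in capitals and reads TTTCNNTTTC where the element lies on the opposite strand.
Isg15: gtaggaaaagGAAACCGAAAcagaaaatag
Ifit1: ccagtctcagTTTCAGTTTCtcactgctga
Ifit3: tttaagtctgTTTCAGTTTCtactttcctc
Ifit3b: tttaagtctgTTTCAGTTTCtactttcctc
Rsad2: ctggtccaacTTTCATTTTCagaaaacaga
Bst2: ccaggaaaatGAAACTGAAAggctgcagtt
Oas3: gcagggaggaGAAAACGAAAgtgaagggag
Gbp2: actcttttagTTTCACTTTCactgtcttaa
They lie at chr4:156200871-156200900 (minus strand), chr19:34640794-34640823 (plus strand), chr19:34583397-34583426 (plus strand), chr19:34607793-34607822 (plus strand), chr12:26456553-26456582 (minus strand), chr8:71537577-71537606 (minus strand), chr5:120777715-120777744 (minus strand) and chr3:142620594-142620623 (plus strand). The windows of Ifit3 and its near copy Ifit3b were the same in all 30 bases. Irf1, called lower in 2 classes and higher in none, had no ISRE core in its window and 1 GAS core, shown in capitals in 29 bases at chr11:53769914-53769942 (plus strand).
Irf1: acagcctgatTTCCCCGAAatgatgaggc
These are matches of letters, and binding was not measured.

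Requiring over 500 genes, under 8000 genes and under 20% mitochondrial UMIs (unique molecular identifiers, 1 per captured transcript molecule) kept 6029 of 6314 ND and 6224 of 6636 HFD barcodes, with a median of 4610 and 4824 UMIs. The libraries had 14 kept barcode sequences in common. Cells were clustered without the interferon-stimulated genes and clusters were named "-like" from marker genes. A cluster of 206 ND and 160 HFD cells and another of 33 and 19 were left unnamed. Their cells belong to none of the classes and enter only the values over all kept cells. Levels are UMIs per 1000000 UMIs of a class (UPM); since a tag is counted once per molecule, they were not divided by gene length. The 11 classes with at least 10 of the genes at 50 or more UMIs were mature neutrophil-like, immature neutrophil-like, granulocyte/monocyte progenitor-like, monocyte-like, macrophage-like, T cell-like, NK cell-like, mature B cell-like, B cell precursor-like and mesenchymal-like cells and a cluster led by Fabp4 and Ly6c1. The last had 9 of 9 endothelial markers detected but none among its top 10 genes by fold, where the mesenchymal marker Cxcl12 stood, so it keeps the name of its leading genes. Endothelial markers still scored highest in it, at a mean log2 fold of 5.72 over the median of the clusters, against 2.52 for the next list. At resolution 0.25 its top 10 held no marker of another class. Basophil/mast-like, erythroid-like, pericyte/smooth muscle-like and plasmacytoid dendritic-like cells were smaller, and the last was a sub-cluster of the monocyte-like class seen at a finer resolution. The macrophage-like class was a mixture too, with conventional dendritic-like cells, described below, making up 77 of its 170 ND and 118 of its 209 HFD cells. The monocyte-like class held 1 cluster with 75.8% of its cells from ND, the T cell-like class 1 with 72.4% and the mature neutrophil-like class 1 with 90.3%. For interferon-stimulated genes tested both with and without those clusters, changed calls are given with the results. Other values without those clusters are given only in part.

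The most abundant, Ifitm3 (ENSMUSG00000025492), Ifi27l2a (ENSMUSG00000079017) and Bst2 (ENSMUSG00000046718), set the summed level. The 40 genes together had 199111 UMIs, of which Ifitm3 alone held 44.9%, Ifi27l2a 15.3% and Bst2 5.99%. The rarest was Ifi44, with 86 UMIs, so no gene fell under 50 UMIs over all kept cells. Summed over the 40, the level was highest among the 11 classes in Fabp4/Ly6c1-led and monocyte-like cells, at 4905 and 5533 UPM in ND and 6839 and 6759 UPM in HFD. It was lowest of the 11 in granulocyte/monocyte progenitor-like cells, at 530.1 and 659.8 UPM. Mature neutrophil-like cells stood between them, at 2308 UPM in ND and 3057 UPM in HFD.

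**Figure D1:**
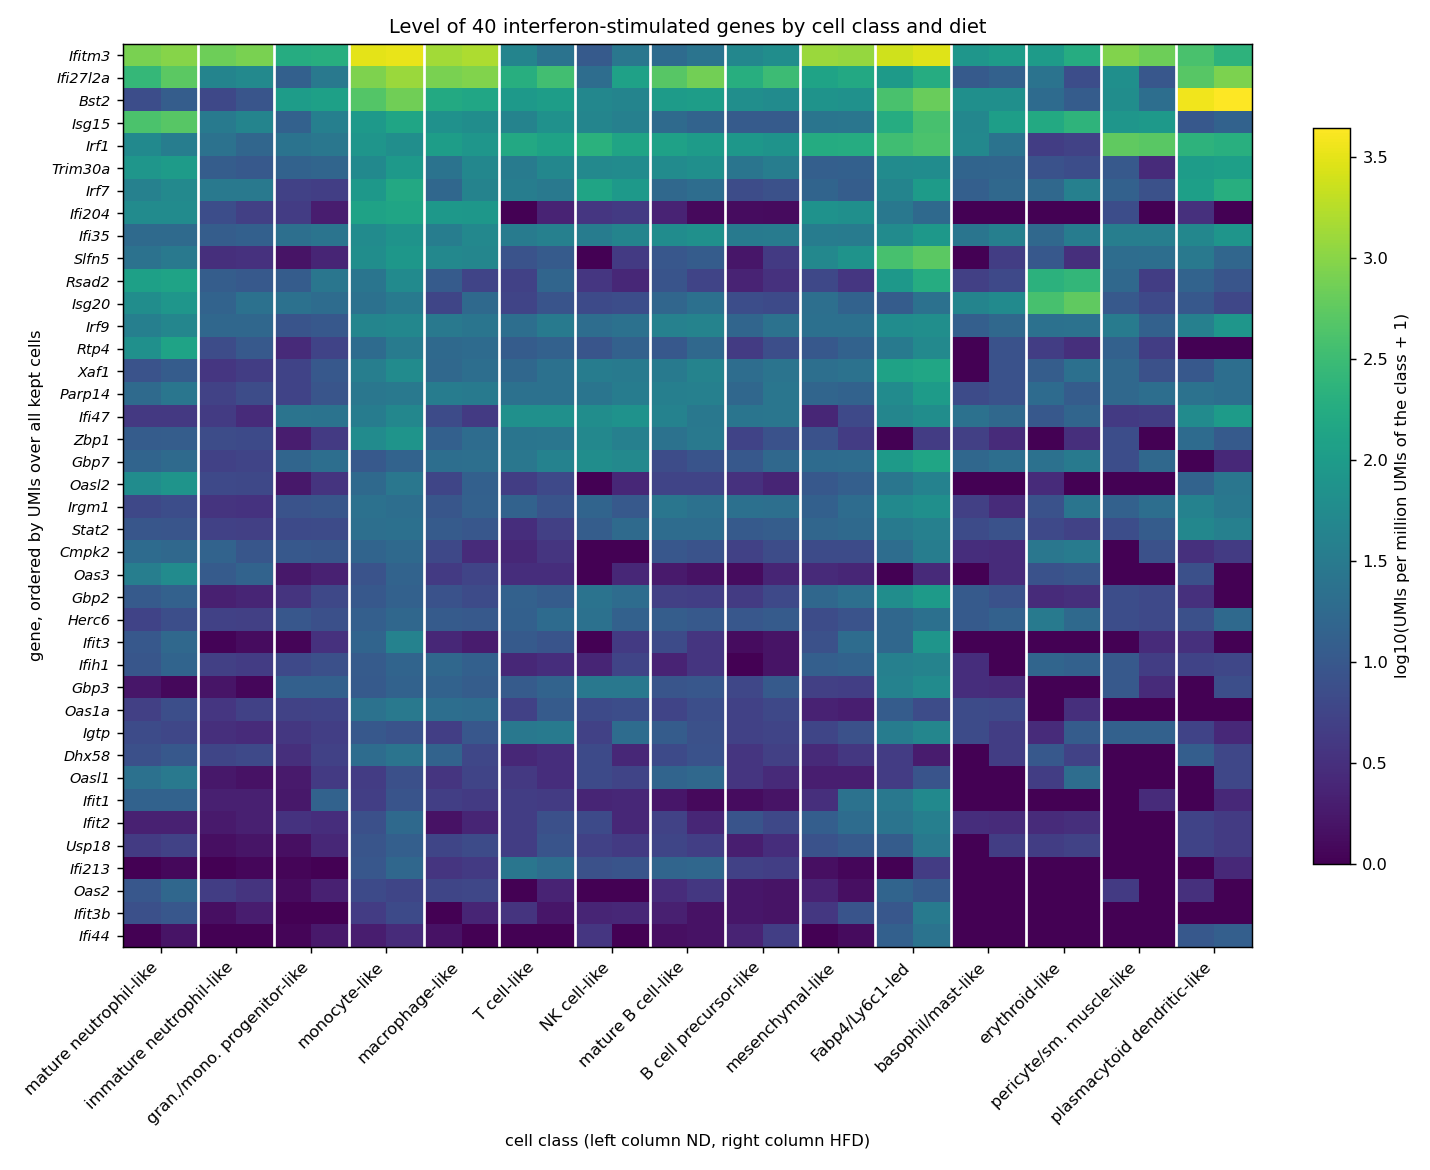
Level of each of the 40 measured interferon-stimulated genes (rows, most UMIs first) in each cell class (pairs of columns, ND left and HFD right), as log10 of UMIs per 1000000 UMIs of the class plus 1. Ifitm3 is bright in the myeloid, mesenchymal-like and Fabp4/Ly6c1-led columns, Bst2 in plasmacytoid dendritic-like cells, Isg15 and Rsad2 in mature neutrophil-like, Fabp4/Ly6c1-led and erythroid-like cells, and Isg20 in erythroid-like cells.

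The membrane proteins came first in level. Ifitm3 keeps viruses from fusing with the cell, and Bst2 (tetherin) holds budding virions at the cell surface. Ifitm3 stood at 3144 UPM in ND and 3334 UPM in HFD in monocyte-like cells, at 2394 and 2948 UPM in Fabp4/Ly6c1-led cells and at 1356 and 1595 UPM in macrophage-like cells. Mesenchymal-like cells had 1245 and 1171 UPM, mature neutrophil-like cells 802 and 973, immature neutrophil-like cells 691 and 825 and granulocyte/monocyte progenitor-like cells 181 and 193. Lymphoid levels were far lower, at 46.9 and 61 UPM in B cell precursor-like, 43.5 and 23.2 in T cell-like, 18 and 24.5 in mature B cell-like and 9.65 and 26.5 in NK cell-like cells. Myeloid and stromal levels thus exceeded every lymphoid level, and its ratio of HFD over ND lay between 0.534 and 1.36 over the 10 classes with at least 50 UMIs. The low end was in T cell-like cells, at 0.534 (0.35 to 0.8), where the close relative Ifitm2 was lower too, at 104 UPM in ND and 33.2 UPM in HFD. In the same cells 7 abundant neutrophil transcripts, such as S100a8, went from 5862 to 2508 UPM in sum, with 4 called lower and 1 higher (4.5% and 4.22% of all genes). Their part in the Ifitm3 and Ifitm2 values was not tested.

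Bst2, which in mice also marks plasmacytoid dendritic cells, stood at 3678 UPM in ND and 4409 UPM in HFD in the 42 ND and 56 HFD plasmacytoid dendritic-like cells. Monocyte-like cells had 464 and 713 UPM and Fabp4/Ly6c1-led cells 389.7 and 648 UPM. Between these and the low classes came macrophage-like cells at 165 and 142 UPM, granulocyte/monocyte progenitor-like cells at 102 and 115, mature B cell-like cells at 99.97 and 107 and T cell-like cells at 91.1 and 108. Mesenchymal-like cells had 74.2 and 68.6 UPM, B cell precursor-like cells 62.2 and 55.9, NK cell-like cells 48.2 and 43.7, mature neutrophil-like cells 6.19 and 10.7 and immature neutrophil-like cells 5.15 and 8.29. Its ratio was 1.54 (1.46 to 1.62) in monocyte-like and 1.66 (1.43 to 1.94) in Fabp4/Ly6c1-led cells. The monocyte-like class includes the plasmacytoid dendritic-like cells, which held 446652 ND and 606210 HFD UMIs, beside 5242041 and 5092851 in the whole class. By these values most Bst2 UMIs of the class lay in them. Its Bst2 level and ratio are therefore those of a mixture and not of monocyte-like cells alone. The levels of both neutrophil-like classes were the lowest of the 11.

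Ratios between the diets were compared over genes with at least 50 UMIs in a class, with 0.5 added to each count on the log2 scale, and a gene was called higher or lower when the ratio passed 1.5-fold. Monocyte-like cells had 14 of 38 genes called higher in HFD and 0 lower, where 3.22% and 3.73% of all genes tested in that class passed the same folds. Fabp4/Ly6c1-led cells had 13 of 27 higher and 0 lower (5.69% and 5.05% of all genes), and mature neutrophil-like cells 9 of 34 higher and 1 lower (2.79% and 5.64%). The median log2 ratio of the genes was 0.49 in monocyte-like, 0.57 in Fabp4/Ly6c1-led and 0.36 in mature neutrophil-like cells, beside 0.06, 0.02 and -0.03 over all genes tested. The medians of the lower and of the upper bounds of the single genes ran from 0.12 to 0.81, 0.04 to 1.26 and 0.01 to 0.71. They describe the counting error of a typical gene and are not an interval of the median. The ratio was above 1 for 34 of 38, 27 of 27 and 28 of 34 genes in these 3 classes. The share of all genes with a ratio above 1 is not given. Genes entered on UMIs summed over both libraries, and the Fabp4/Ly6c1-led cluster held 577353 UMIs in ND and 1139108 in HFD. A gene higher in HFD thus reached the minimum there more readily than one lower in HFD. Ifi204, lower in HFD in that cluster, did not reach 50 UMIs.

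In the other 8 classes the shift was smaller. In granulocyte/monocyte progenitor-like cells 6 of 22 genes were called higher and 0 lower (2.39% and 3.58% of all genes), and 1 cell, described below, held 53.1% of the HFD UMIs of the core genes. Hemoglobin genes were far lower in HFD in this class, as given below. Mesenchymal-like cells had 5 of 30 higher and 2 lower (5.36% and 3.98%), B cell precursor-like cells 4 of 15 and 0 (3.23% and 3.9%) and mature B cell-like cells 2 of 27 and 1 (2.24% and 3.67%). T cell-like cells had 3 of 17 higher and 1 lower (4.22% and 4.5%), and macrophage-like cells 3 of 18 and 0 (4.49% and 6.67%). Immature neutrophil-like cells had 3 of 28 higher and 3 lower (1.95% and 6.98%) and NK cell-like cells 1 of 10 and 1 (5.83% and 3.94%). Their median log2 ratios were 0.19 in granulocyte/monocyte progenitor-like, 0.15 in mesenchymal-like, 0.23 in B cell precursor-like, 0.13 in mature B cell-like, 0.24 in T cell-like, 0.00 in macrophage-like, 0.01 in immature neutrophil-like and -0.18 in NK cell-like cells. In each of these 8 classes the medians of the single-gene bounds lay on either side of 0. As these bounds are of single genes, they do not tell whether a class median differed from 0. Whether the shift differed between classes was not tested. Over all kept cells 8 of 40 genes were called higher and 0 lower (9.41% and 2.72% of all genes), where differences in the makeup of the libraries enter too.

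Of the small classes, basophil/mast-like cells had 1 of 4 genes called higher, namely Isg15, and 0 lower (7.4% and 6.07%). Erythroid-like cells had 1 of 4 higher and 0 lower (6.41% and 8.83%), the one being Ifitm3, at 100.5 UPM in ND and 182 UPM in HFD. Pericyte/smooth muscle-like cells had 0 of 3 higher and 0 lower (6.37% and 7.07%). Plasmacytoid dendritic cells are known as producers of type I interferon, and plasmacytoid dendritic-like cells had 5 of 9 higher and 1 lower (7.06% and 4.87%). Those higher were Irf7, Irf9, Ifi47, Ifi35 and Ifi27l2a, the last at 499 UPM in ND and 831 UPM in HFD, a ratio of 1.67 (1.42 to 1.958). Irf9 stood at 38.1 UPM in ND and 82.5 UPM in HFD, Ifi47 at 56 and 99 UPM and Ifi35 at 47 and 79.2 UPM. Ifitm3 was the gene called lower, at 394 UPM in ND and 226 UPM in HFD, a ratio of 0.574 (0.455 to 0.721). Ifnb1 had 0 UMIs in these cells, which allows up to 3 of 446652 ND and 606210 HFD UMIs.

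**Figure D2:**
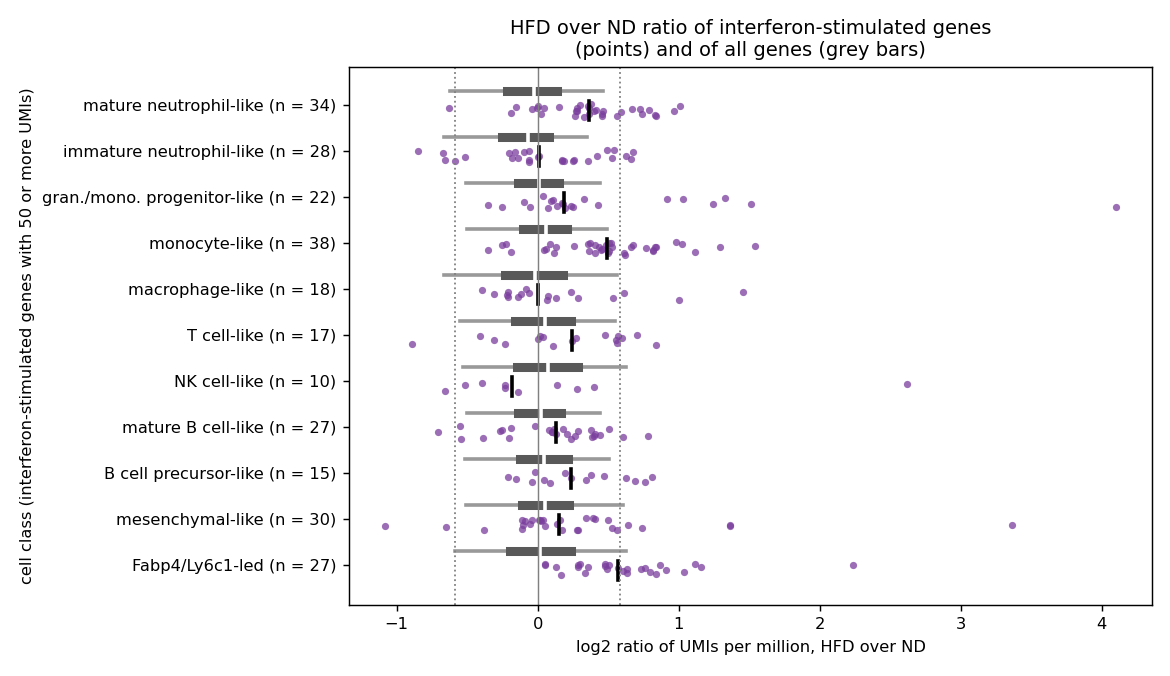
Log2 ratio of UMIs per 1000000, HFD over ND, of each interferon-stimulated gene with at least 50 UMIs in a class (points; black line, their median), with all genes tested in that class above them (thin grey bar, 5th to 95th percentile; thick grey bar, quartiles; white tick, median); dotted lines mark 1.5-fold and the vertical spread of points has no meaning. The points of monocyte-like, mature neutrophil-like and Fabp4/Ly6c1-led cells lie mostly to the right of 0, and those of immature neutrophil-like and macrophage-like cells on either side of it.

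The ISG15 system comprises Isg15, a ubiquitin-like tag placed on proteins, Usp18, which removes the tag and dampens the type I receptor, and Herc6, an ISG15 ligase. Isg15 was highest in mature neutrophil-like cells, at 407 UPM in ND and 492 UPM in HFD, and next in Fabp4/Ly6c1-led cells, at 178 UPM in ND and 387 UPM in HFD. Monocyte-like cells had 90.4 and 138 UPM, macrophage-like cells 68.9 and 59.6, NK cell-like cells 44.1 and 37.5 and T cell-like cells 41.5 and 67.7. In the remaining 5 classes it lay at 29.5 and 42.4 UPM in immature neutrophil-like, 25.1 and 25.6 in mesenchymal-like, 17.4 and 13.3 in mature B cell-like, 12.6 and 35.9 in granulocyte/monocyte progenitor-like and 10.3 and 10.2 in B cell precursor-like cells. The ratio was 2.17 (1.75 to 2.72) in Fabp4/Ly6c1-led, 1.53 (1.36 to 1.72) in monocyte-like, 1.63 (1.21 to 2.21) in T cell-like and 1.21 (1.14 to 1.28) in mature neutrophil-like cells, so the class with the highest level had a small ratio. Basophil/mast-like cells went from 47.1 to 109 UPM, with 26 of the 60 HFD UMIs in 1 cell. Usp18 had 43 UMIs in ND and 60 in HFD in monocyte-like cells, and Herc6 was called in no class, with ratios between 0.777 and 1.48.

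The IFIT proteins bind viral RNA and block its translation. Ifit3 was called higher in all 4 classes in which it reached 50 UMIs. In monocyte-like cells it had 72 UMIs in ND and 204 in HFD, or 13.7 and 40.1 UPM, a ratio of 2.92 (2.22 to 3.87), and in Fabp4/Ly6c1-led cells 9 UMIs in ND and 88 in HFD, or 15.6 and 77.3 UPM, a ratio of 4.96 (2.5 to 11.2). Its ratio was 2.6 (1.77 to 3.92) in mesenchymal-like and 1.8 (1.26 to 2.57) in mature neutrophil-like cells, with 7.12 and 18.5 and 8.95 and 16.1 UPM. These ratios did not rest on the cell with the most Ifit3 UMIs in each library, without which they were 2.8 (2.04 to 3.9), 6.25 (2.74 to 17.6), 2.28 (1.43 to 3.77) and 1.86 (1.26 to 2.76) in the same order. Ifit2 went from 6.68 to 16.5 UPM in monocyte-like and from 11.1 to 18.7 UPM in mesenchymal-like cells, ratios of 2.47 (1.65 to 3.78) and 1.68 (1.21 to 2.36). Ifit3b, which shares long stretches with Ifit3 so that reads common to them could have been left uncounted, reached 8.66 and 29.8 UPM in Fabp4/Ly6c1-led cells.

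Ifit1 showed how far a few cells can carry a class. In mesenchymal-like cells it had 10 UMIs in ND and 157 in HFD, a ratio of 10.8 (5.7 to 22.9), and 113 of the HFD UMIs came from 1 cell. Without the top cell of each library 8 and 44 UMIs remained, a ratio of 3.76 (1.75 to 9.24). In mature neutrophil-like cells Ifit1 stood at 12.9 UPM in ND and 12.8 UPM in HFD. Its level in Fabp4/Ly6c1-led cells was 27.7 and 51.8 UPM, a ratio of 1.87 (1.06 to 3.48), and without the top cells 2.05 (1.1 to 4.1).

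Enzymes of the OAS family make oligoadenylates that activate RNase L, and the OAS-like Oasl1 and Oasl2 are their relatives. Together the 5 listed genes stood at 128 UPM in ND and 183 UPM in HFD mature neutrophil-like cells, more than in any other class. Among them, Oas3 went from 35.5 to 56.3 UPM, Oas2 from 8.79 to 15.7 and Oas1a from 3.91 to 6.51, all past 1.5-fold, though the interval of Oas1a reached below 1. Oasl2 stood at 58.1 and 75.5 UPM and Oasl1 at 21.8 and 28.7 UPM in the same cells, ratios of 1.3 (1.12 to 1.5) and 1.32 (1.04 to 1.68). Monocyte-like cells had Oas3, Oasl1 and Oasl2 called higher, with ratios of 1.79 (1.19 to 2.73), 2 (1.1 to 3.75) and 1.6 (1.21 to 2.12), and neither Oas1a nor Oas2. Oas1a has close copies in a gene cluster, and molecules shared with them could have been left out.

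Viperin, encoded by Rsad2, makes a chain-terminating nucleotide, Cmpk2 is a nucleotide kinase encoded beside it, and Isg20 is an RNA exonuclease. Rsad2 was highest in erythroid-like cells, at 215 UPM in ND and 255 UPM in HFD, beside 116 and 129 UPM in mature neutrophil-like and 86.6 and 179 UPM in Fabp4/Ly6c1-led cells. It was called lower in mature B cell-like cells, on 36 UMIs in ND and 19 in HFD, with an interval that reached above 1. Its ratio was 2.07 (1.51 to 2.88) in Fabp4/Ly6c1-led and 2.17 (1.76 to 2.69) in monocyte-like cells, which had 25 and 54.2 UPM and where 111 of 276 HFD UMIs lay in 1 cell and the ratio without the top cells was 1.85 (1.42 to 2.41). Isg20 also led in erythroid-like cells, at 386 UPM in ND and 571 UPM in HFD, and stood at 60.1 and 82.4 UPM in mature neutrophil-like cells. Only 32 ND and 26 HFD erythroid-like cells were found, with 241 and 279 UMIs of the core genes defined below. Isg20 went opposite ways in the other classes where it passed 1.5-fold, with 13.6 and 21.6 UPM and a ratio of 1.58 (1.28 to 1.963) in immature neutrophil-like and 20.1 and 12.8 UPM and a ratio of 0.635 (0.471 to 0.857) in mesenchymal-like cells. Cmpk2 was lower in immature neutrophil-like cells, at 13.2 and 8.37 UPM, a ratio of 0.633 (0.482 to 0.828), and higher in Fabp4/Ly6c1-led cells, where its 11 and 39 UMIs gave an interval that reached below 1.

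Among the transcription factors, Irf7, the amplifier of the type I response, and Irf1, which responds to interferon gamma as well as to inflammatory cytokines, had different patterns. Irf7 stood at 132 and 92.1 UPM in NK cell-like, 87.6 and 156 in monocyte-like, 43.3 and 98.3 in Fabp4/Ly6c1-led and 38.9 and 51.7 in mature neutrophil-like cells. T cell-like cells had 34.4 and 29.2 UPM, immature neutrophil-like cells 28.9 and 29.1, mature B cell-like cells 15.9 and 19.4, macrophage-like cells 15.2 and 42.3, mesenchymal-like cells 14 and 10.8, B cell precursor-like cells 5.98 and 7.09 and granulocyte/monocyte progenitor-like cells 4.05 and 3.71. It was called higher in macrophage-like, Fabp4/Ly6c1-led and monocyte-like cells, with ratios of 2.77 (1.81 to 4.37), 2.27 (1.46 to 3.66) and 1.78 (1.58 to 2). Plasmacytoid dendritic-like cells had 112 UPM in ND and 189.7 UPM in HFD. The ratio in NK cell-like cells was 0.696 (0.494 to 0.972). In the macrophage-like class, Irf7 had 29 UMIs in ND and 93 in HFD, of which 19 and 75 lay in conventional dendritic-like cells, with a ratio of 2.16 (1.29 to 3.78) there.

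Irf1 was highest in pericyte/smooth muscle-like cells, at 564 UPM in ND and 517 UPM in HFD, and in Fabp4/Ly6c1-led cells, at 333 UPM in ND and 406 UPM in HFD. It stood at 209 and 133 UPM in NK cell-like, 173 and 177 in mesenchymal-like, 156 and 126 in T cell-like, 119 and 99.4 in mature B cell-like and 107 and 81.4 in macrophage-like cells. B cell precursor-like cells had 84.8 and 73.2 UPM, monocyte-like cells 79.7 and 62.4, mature neutrophil-like cells 51.9 and 33.5, granulocyte/monocyte progenitor-like cells 23.6 and 26.8 and immature neutrophil-like cells 22.3 and 14.9. It was called higher in none of the 11 classes and lower in mature neutrophil-like cells, with a ratio of 0.646 (0.534 to 0.779), and NK cell-like cells, with 0.633 (0.48 to 0.831). Without the ND-rich mature neutrophil-like cluster the former was 0.672 (0.551 to 0.816), just short of 1.5-fold. Immediate-early genes that enzymatic release is known to induce, such as Fos and Jun, were lower as well. Of these, 11 of 22 were called lower in HFD and 0 higher in mature neutrophil-like cells (5.64% and 2.79% of all genes), against 3 lower and 1 higher of 20 in NK cell-like cells (3.94% and 5.83%). Without the ND-rich mature neutrophil-like cluster 5 of 22 were called lower and 0 higher (4.69% and 2.43% of all genes). The part of the immediate-early genes in the Irf1 result was not tested. Irf9 and Stat2, which encode parts of the factor that binds the ISRE, passed 1.5-fold in few classes. Irf9 had ratios between 0.865 and 1.55 and was called higher in B cell precursor-like cells, at 14.6 UPM in ND and 22.7 UPM in HFD, and in T cell-like cells, where the interval reached below 1. Stat2 was called in no class, with ratios between 0.96 and 1.28.

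The nucleic acid sensors of the list are Ifih1 (MDA5), which detects long viral RNA, Dhx58, its regulator, Zbp1, which binds left-handed nucleic acid and triggers cell death, and the DNA-binding Ifi204 and Ifi213. Ifi204 was a myeloid and stromal gene, at 126 and 137 UPM in monocyte-like, 87.8 and 82.7 in macrophage-like, 69.97 and 65 in mesenchymal-like and 55.7 and 56.7 in mature neutrophil-like cells. Fabp4/Ly6c1-led cells had 27.7 and 16.7 UPM and immature neutrophil-like cells 6.36 and 3.97 UPM. In granulocyte/monocyte progenitor-like, T cell-like, NK cell-like, mature B cell-like and B cell precursor-like cells the level was 0 to 3.49 UPM. It was lower in immature neutrophil-like cells, with a ratio of 0.625 (0.419 to 0.926), and elsewhere between 0.93 and 1.09 in the 4 classes with the most. Ifih1 went from 8.46 to 14.2 UPM in mature neutrophil-like cells, a ratio of 1.67 (1.16 to 2.44). In monocyte-like cells Ifi213 went from 8.78 to 15.5 UPM, and Zbp1, called in macrophage-like cells as higher and in mesenchymal-like cells as lower on 64 and 59 UMIs, stood at 56.3 and 77 UPM. Dhx58 was called in no class.

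The interferon-inducible GTPases, which attack the vacuoles of intracellular pathogens and respond strongly to interferon gamma, passed 1.5-fold in few classes. Of 6 measured, none of the 6 tested in monocyte-like and none of the 4 tested in mature neutrophil-like cells was called. Of all genes 3.22% and 2.79% were called higher and 3.73% and 5.64% lower, so with so few genes these counts cannot be told from those shares. Summed levels in ND and HFD were 92.9 and 113 UPM in monocyte-like and 38.7 and 44.1 UPM in mature neutrophil-like cells. Without the ND-rich monocyte-like cluster Gbp2 and Gbp7 were called higher, as given below. Fabp4/Ly6c1-led cells had the highest sum, 329 and 459 UPM, with Gbp7 at 97 and 137 UPM and Gbp2 at 60.6 and 94.8 UPM, and only Gbp2 was called, with a ratio of 1.56 (1.06 to 2.36). NK cell-like and T cell-like cells followed, at 189 and 198 UPM and at 157 and 168 UPM. Ifi47 stood at 59.3 and 71.8 UPM in NK cell-like cells, beside Gbp7 at 60.6 and 51.5 UPM, and at 66.3 and 66.4 UPM in T cell-like cells, where it led the 6. Irgm1 was called higher in mesenchymal-like cells, with 57 UMIs in ND and 130 in HFD, Gbp7 higher in B cell precursor-like cells, with 27 UMIs in ND and 56 in HFD, and Ifi47 lower in immature neutrophil-like cells, with 32 UMIs in ND and 21 in HFD. Gbp3 and Igtp were called in no class. The guanylate-binding genes are close copies of each other, so their molecules may be divided or lost between them.

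Ifi27l2a, a mitochondrial protein of the ISG12 family, was above 1 in ratio in all 11 classes and called higher in 7. Its levels were 873 and 1259 UPM in monocyte-like, 819.6 and 896 in macrophage-like, 490.4 and 747 in mature B cell-like and 265 and 535 in mature neutrophil-like cells. T cell-like cells had 195 and 349 UPM, B cell precursor-like cells 195 and 314, mesenchymal-like cells 128 and 156 and Fabp4/Ly6c1-led cells 95.3 and 180.0. The lowest were immature neutrophil-like cells at 43.3 and 51.5 UPM, NK cell-like cells at 19.3 and 122 and granulocyte/monocyte progenitor-like cells at 12 and 28.5. The ratio was 2.02 (1.9 to 2.15) in mature neutrophil-like, 1.89 (1.4 to 2.59) in Fabp4/Ly6c1-led, 1.79 (1.57 to 2.05) in T cell-like, 1.61 (1.46 to 1.79) in B cell precursor-like, 1.52 (1.44 to 1.61) in mature B cell-like and 1.44 (1.39 to 1.5) in monocyte-like cells. In NK cell-like cells the ratio was 6.31, but 1 cell held 44 of 78 HFD UMIs. In granulocyte/monocyte progenitor-like cells 1 cell held 63 of 146, and the ratio was 2.37 (1.81 to 3.14) with and 1.55 (1.12 to 2.15) without the top cell of each library. On the log2 scale that ratio of 1.24 turned to -0.92 with each cell thinned to 1000 UMIs and to -0.049 with finer clusters.

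Rtp4, a chaperone of membrane receptors with antiviral activity, was called higher in 5 of the 7 classes where it reached 50 UMIs. It went from 66.6 to 130.3 UPM in mature neutrophil-like cells, the highest level, a ratio of 1.957 (1.73 to 2.22), and from 6.06 to 9.39 UPM in immature neutrophil-like cells. Mature B cell-like cells went from 9.22 to 15.9 UPM and monocyte-like cells from 17.9 to 31.6 UPM. Fabp4/Ly6c1-led cells had 29.4 and 50.9 UPM. It was not called in macrophage-like and mesenchymal-like cells, with ratios of 1.05 (0.643 to 1.74) and 1.45 (0.999 to 2.14).

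Slfn5, a nuclear schlafen protein, was mostly a gene of the Fabp4/Ly6c1-led cells, at 379 UPM in ND and 538 UPM in HFD, beside 59.9 and 84.6 UPM in monocyte-like, 50.1 and 74.1 in mesenchymal-like, 49.4 and 45.5 in macrophage-like and 22.6 and 29.1 in mature neutrophil-like cells. In the other 6 classes it lay at 0 to 10.6 UPM, and it was called in no class. Trim30a, which restrains NF-kappaB signalling, stood at 80.7 and 99.2 UPM in mature neutrophil-like, 53.2 and 90.7 in monocyte-like, 56 and 64.8 in mature B cell-like, 55.4 and 57.9 in Fabp4/Ly6c1-led and 51 and 56.2 in NK cell-like cells. T cell-like cells had 31.9 and 47.1 UPM, B cell precursor-like cells 24.9 and 34.6, macrophage-like cells 23.7 and 47.7, granulocyte/monocyte progenitor-like cells 13 and 14.3, mesenchymal-like cells 11.7 and 12.2 and immature neutrophil-like cells 10.9 and 9.47. It was called higher in macrophage-like and monocyte-like cells, with ratios of 2.02 (1.41 to 2.93) and 1.7 (1.47 to 1.98). The macrophage-like class includes conventional dendritic-like cells, and the Trim30a ratio of each part is not given. Ifi35, a partner of Nmi in cytokine signalling, was called higher in Fabp4/Ly6c1-led cells, at 55.4 UPM in ND and 86.9 UPM in HFD, and in no other of the 11 classes. By class it stood at 57.2 and 73.2 UPM in monocyte-like, 59 and 66.7 in mature B cell-like, 34.2 and 49.6 in macrophage-like, 33.1 and 31.9 in mesenchymal-like and 33.1 and 43.7 in NK cell-like cells. T cell-like cells had 31.4 and 37.8 UPM, B cell precursor-like cells 29.6 and 31.5, granulocyte/monocyte progenitor-like cells 20.4 and 24.2, mature neutrophil-like cells 17.1 and 17 and immature neutrophil-like cells 10.8 and 12.2. Parp14, an ADP-ribosyltransferase, was called higher in 4 classes, among them B cell precursor-like cells at 15.3 UPM in ND and 26.1 UPM in HFD, and Xaf1, which promotes apoptosis, in granulocyte/monocyte progenitor-like and monocyte-like cells. Ifi44 reached 50 UMIs in no class.

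**Figure D3:**
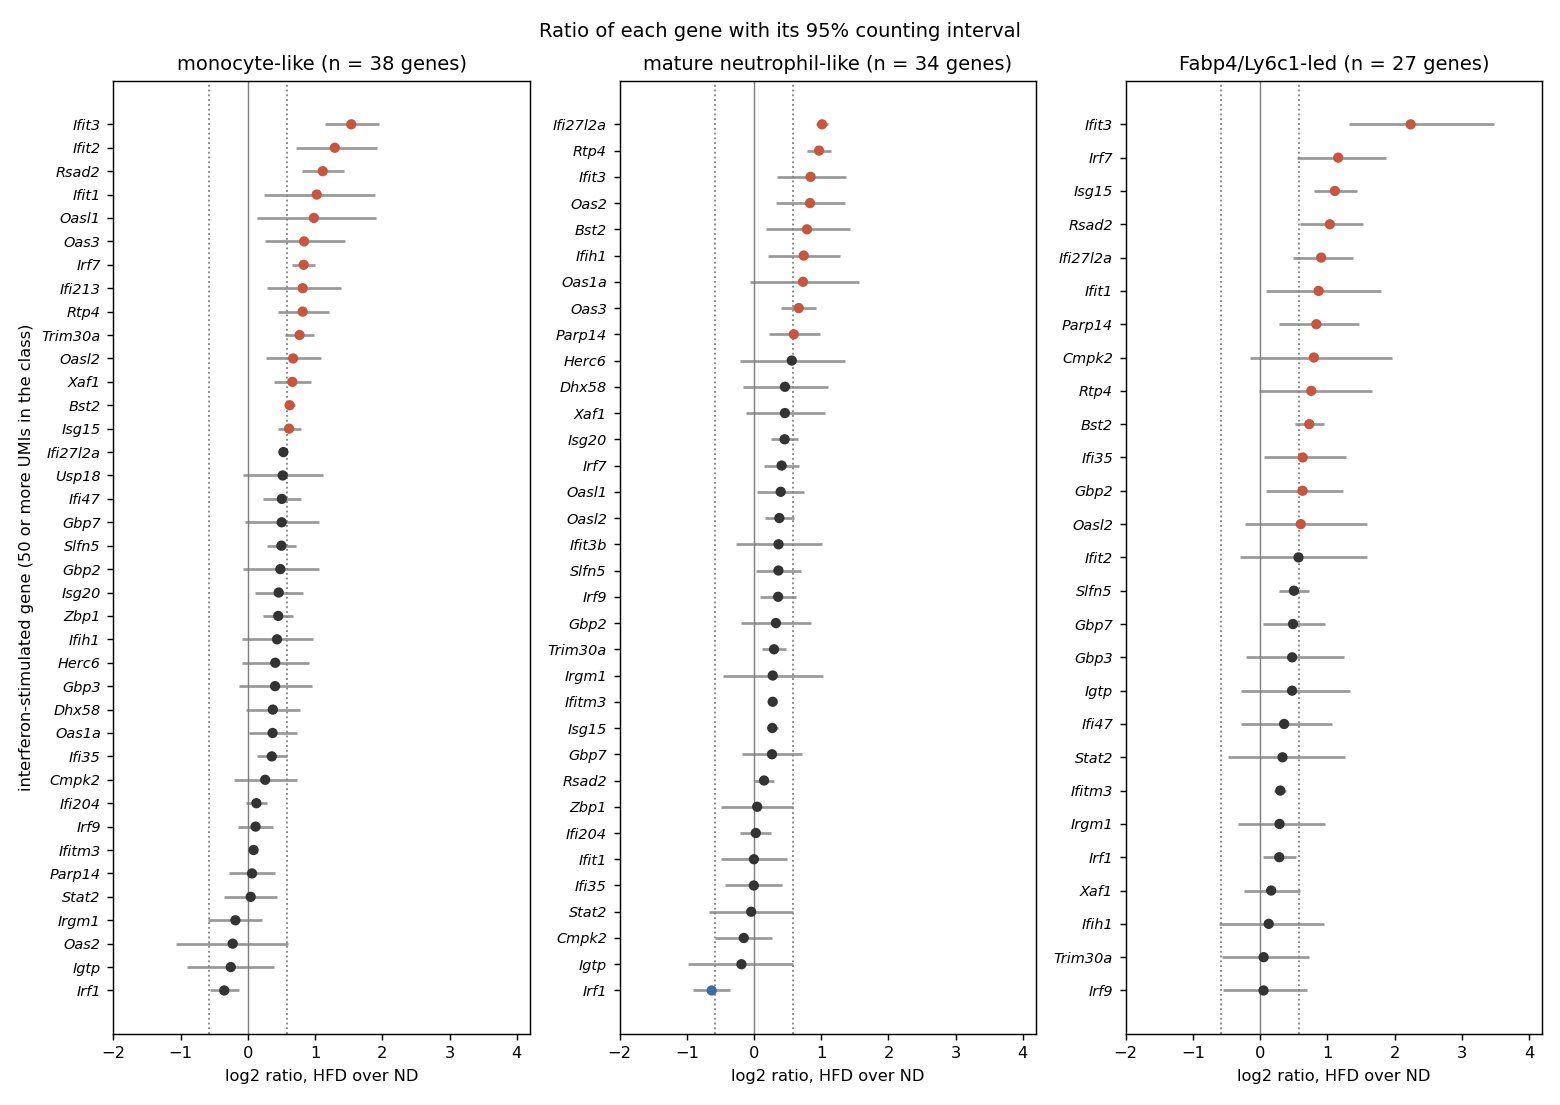
Log2 ratio of UMIs per 1000000, HFD over ND, of each interferon-stimulated gene with at least 50 UMIs (points) with its exact 95% counting interval (bars) in the 3 of the 11 larger classes with the largest medians; red, at least 1.5-fold higher in HFD; blue, at least 1.5-fold lower; dotted lines, 1.5-fold. Ifit3, at 2.92-fold in monocyte-like and 4.96-fold in Fabp4/Ly6c1-led cells, tops those panels, Ifi27l2a at 2.02-fold tops that of mature neutrophil-like cells, and Irf1 is lowest in the first 2 panels.

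The genes called higher overlapped in part among the leading classes. Monocyte-like and Fabp4/Ly6c1-led cells had 8 in common (Bst2, Ifit1, Ifit3, Irf7, Isg15, Oasl2, Rsad2 and Rtp4), 57.1% of the monocyte-like and 61.5% of the Fabp4/Ly6c1-led calls. Only 27 genes were tested in both, and the percentages are of all calls of a class, also of genes not tested in the other. Monocyte-like and mature neutrophil-like cells had 4 in common, 28.6% and 44.4%, of 33 genes tested in both. Bst2, Ifit3 and Rtp4 were called in all 3 classes, of 24 genes tested in all of them. The monocyte-like call of Bst2 includes the plasmacytoid dendritic-like cells, which held most of its UMIs. These classes come from the same 2 libraries, so anything that set the libraries apart enters all of them. The overlap of calls over all genes is not given, so whether these overlaps exceed it cannot be told. Within the monocyte-like class, the 36 HFD cells of the ND-rich cluster had 1933 UPM of the core genes defined below, against 432 UPM in its 113 ND cells, with 25 of 27 genes called higher and 0 lower (10.1% and 8.68% of all genes). The largest monocyte-like cluster went from 331 to 599 UPM with 14 of 32 genes called higher and 0 lower, where 4.02% and 3.31% of all genes were. The remaining monocyte-like cluster, of 125 ND and 135 HFD cells, had 106 and 122 UPM, a ratio of 1.15 (0.97 to 1.37), with 2 of 18 genes called higher and 1 lower (3.5% and 3.89% of all genes). Without the ND-rich cluster the class had 11 genes called higher in place of 14, and 0 lower, where 2.8% and 3.03% of all genes were, and a median of 0.49. Bst2 was then at 1.33 (1.26 to 1.41), Isg15 at 1.44 (1.24 to 1.67), Ifit2 at 1.4 (0.812 to 2.46) and Ifi213 at 1.33 (0.821 to 2.17), none of them past 1.5-fold, while Gbp2, Gbp7 and Zbp1 passed it, at 1.61 (1.01 to 2.61), 1.81 (1.15 to 2.92) and 1.61 (1.34 to 1.94). With its plasmacytoid dendritic-like cells left out it had 14 higher and 1 lower, and without the 5 cells richest in core UMIs of each library 9 and a median of 0.36. Mature neutrophil-like cells had 9 called higher and 0 lower without their ND-rich cluster (2.43% and 4.69% of all genes), with Oas3 at 1.49 (1.24 to 1.79) no longer called and Xaf1 at 1.51 (0.977 to 2.35) called, and 12 without their 5 richest cells, and Fabp4/Ly6c1-led cells 11 without theirs. T cell-like cells had 5 called higher and 2 lower without their ND-rich cluster (4.25% and 5.41% of all genes), in place of 3 and 1. Isg15 was then at 1.45 (1.03 to 2.06), short of 1.5-fold, and Gbp7, Trim30a and Zbp1 were past it, at 1.55 (0.949 to 2.56), 1.99 (1.27 to 3.2) and 1.64 (0.916 to 3.02), with Ifi213 lower, at 0.654 (0.358 to 1.17). The core ratio was 1.73 in monocyte-like and 1.08 in mature neutrophil-like cells without those clusters. These exclusions were chosen after seeing the data. For those leaving out plasmacytoid dendritic-like cells or the richest cells, the share of all genes past the same fold is not given. Whether those counts exceed it therefore cannot be told.

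How evenly the response was spread over cells was read from 10 core type I genes (Isg15, Ifit1, Ifit2, Ifit3, Ifit3b, Rsad2, Usp18, Oasl1, Cmpk2 and Irf7), summed per cell. Their level was 417 UPM in ND and 931 UPM in HFD, a ratio of 2.23 (1.94 to 2.58), in Fabp4/Ly6c1-led cells, and 256 UPM in ND and 454 UPM in HFD, a ratio of 1.77 (1.65 to 1.89), in monocyte-like cells. Mature neutrophil-like cells had 635 UPM in ND and 760.1 UPM in HFD, a ratio of 1.2 (1.14 to 1.25). Their clusters were unlike in level. The largest, of 946 ND and 1020 HFD cells, had 476 and 516 UPM, a ratio of 1.08 (1.02 to 1.16). The next, of 560 and 443 cells, had 1264 and 1574 UPM, a ratio of 1.25 (1.17 to 1.33), and the ND-rich one had 227 and 309 UPM. To compare cells of unequal depth each was thinned to 1000 UMIs; 55 ND and 51 HFD cells were shallower and did not enter. At least 1 core UMI was then found in 26.5% of ND and 44.2% of HFD cells of the Fabp4/Ly6c1-led cluster, a difference of 17.7 percentage points (6.85 to 27.5). The share was 26.8% of ND and 30.9% of HFD cells in mature neutrophil-like cells, a difference of 4.08 percentage points (0.918 to 7.25), and 16.6% of ND and 20.4% of HFD cells in monocyte-like cells, a difference of 3.79 percentage points (-1.65 to 9.25). Without their ND-rich clusters these differences were 3.13 (-0.154 to 6.41) and 3.49 (-2.52 to 9.35), so that the interval of the mature neutrophil-like class then included 0. Unthinned, the shares were 53.8% of ND and 69.7% of HFD cells, 46.5% of ND and 52.1% of HFD cells and 64.6% of ND and 73% of HFD cells in the same order. B cell precursor-like cells, with the lowest share, had a core UMI in 2.47% of ND and 3.47% of HFD cells thinned, at unthinned medians of 4335 and 4214 UMIs per cell, beside 4385 and 4045 in the Fabp4/Ly6c1-led cluster. No class is known to lack these genes, so the part of free RNA in a share was not tested.

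Higher thresholds gave smaller shares. At least 2 core UMIs were found in 8.85% of ND and 19.9% of HFD cells of the Fabp4/Ly6c1-led cluster, a difference of 11.1 percentage points (2.91 to 18), and in 13% of ND and 17.2% of HFD cells of the mature neutrophil-like class, a difference of 4.12 percentage points (1.62 to 6.65). At least 5 were found in 3.41% of ND and 4.93% of HFD cells of mature neutrophil-like, 0.885% of ND and 4.87% of HFD cells of Fabp4/Ly6c1-led and 1.49% of ND and 1.59% of HFD cells of monocyte-like cells. Of the mature neutrophil-like cells with an Rsad2 UMI, thinned, 45.9% in ND and 51.6% in HFD also had one of Isg15, against 17.2% and 19.7% of those without. In monocyte-like cells 4 of 8 ND and 5 of 10 HFD cells with Rsad2 also had Isg15. In the Fabp4/Ly6c1-led cluster 1 of 9 ND cells with Rsad2 had Isg15, against 12.5% of the others, and 11 of 34 HFD cells, against 19.8%.

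**Figure D4:**
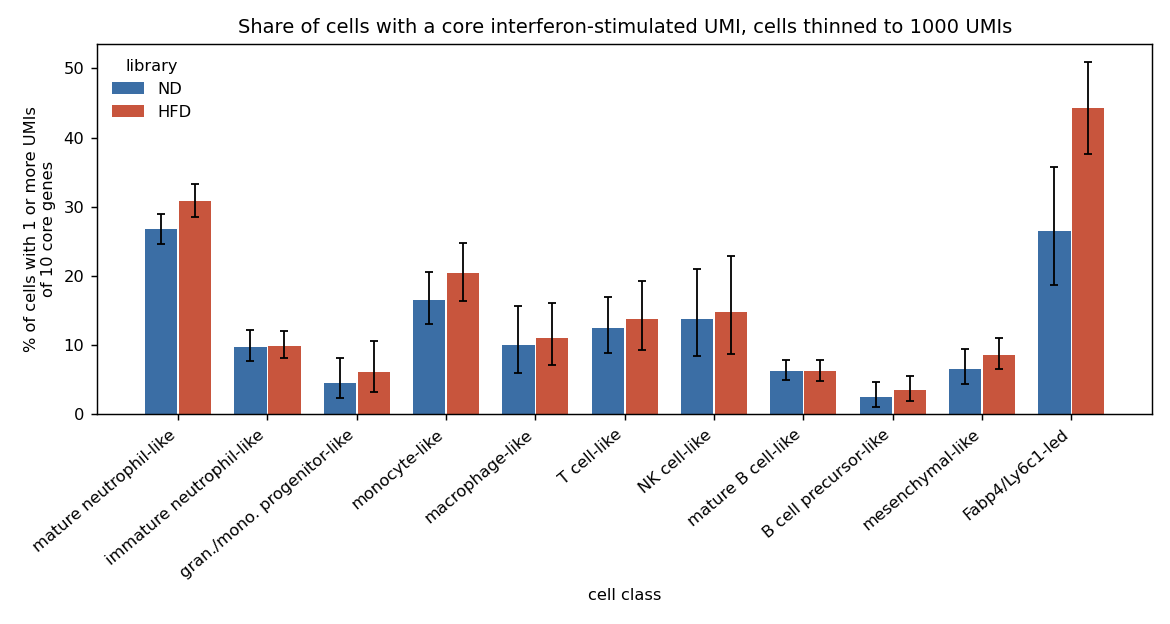
Percentage of cells with at least 1 UMI of the 10 core genes after thinning each cell to 1000 UMIs (bars; blue ND, red HFD) with exact 95% binomial intervals, by cell class. The Fabp4/Ly6c1-led bars stand furthest apart, at 26.5% and 44.2%, and mature neutrophil-like cells are at 26.8% and 30.9%. The intervals of the diets overlap in every class shown but the Fabp4/Ly6c1-led cluster.

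In some classes few cells held most of the core UMIs. The 5% of monocyte-like cells with the most held 54.5% of them in ND and 61% in HFD, against 30.7% and 38.5% for Fabp4/Ly6c1-led cells. The richest HFD monocyte-like cell had 314 core UMIs, and UMIs of 37 of the 40 measured genes, among its 12951 UMIs, and the richest in ND 162. Mesenchymal-like cells had 1 HFD cell with 237 of the 857 core UMIs of the class, the next holding 31. The class stood at 81.9 UPM of the core genes in ND and 123 UPM in HFD, a ratio of 1.5, and most of this rise lay in that cell. The count of mesenchymal-like genes called higher was 5 and, without the 5 richest cells of each library, 1, where the share of all genes is not given. Mature B cell-like cells had 1 such cell in ND, with 79 of 373 core UMIs, where the next held 7. Cells rich in core UMIs were found in either diet.

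**Figure D5:**
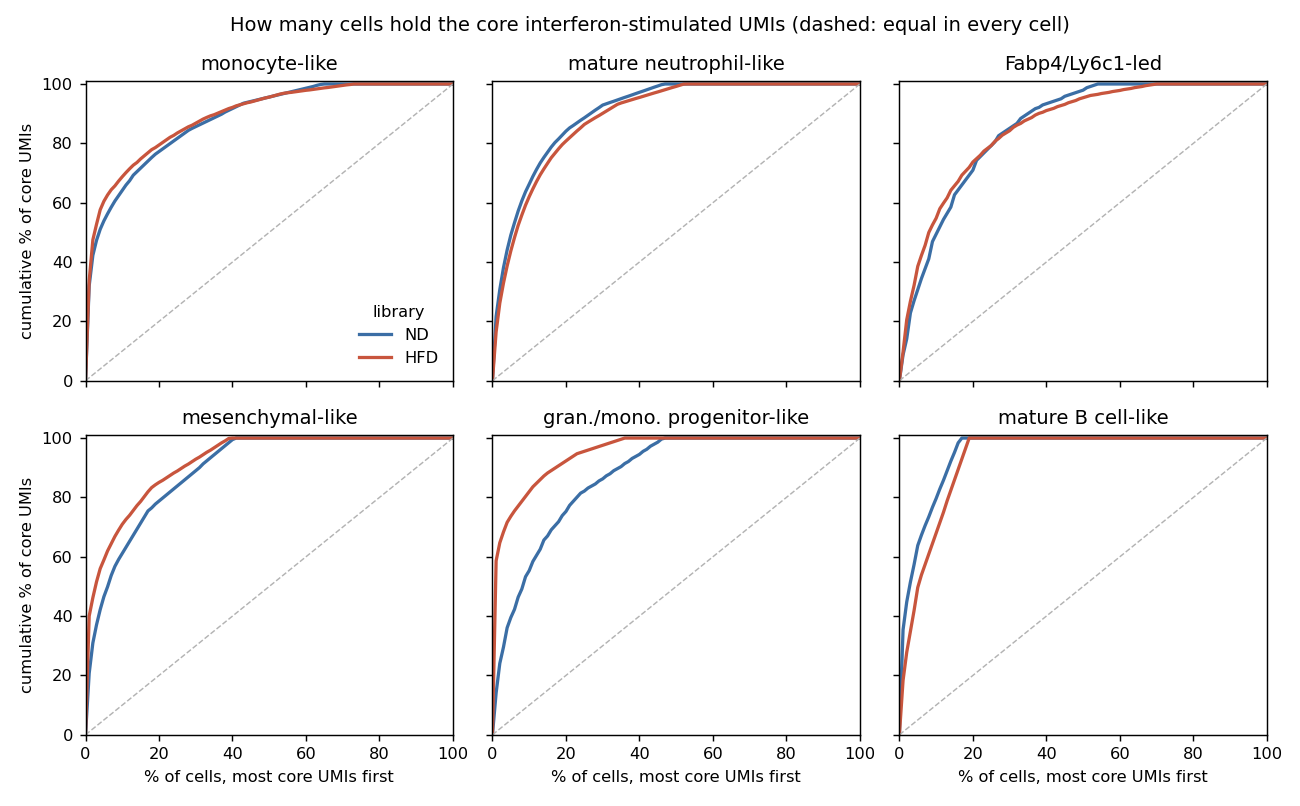
Cumulative percentage of core UMIs held by cells ordered from the most core UMIs to the fewest (x axis, percentage of cells; y axis, percentage of core UMIs), for ND (blue) and HFD (red) in 6 classes; the dashed line is an equal share in every cell. The HFD curve of granulocyte/monocyte progenitor-like cells jumps at its first cell, which held 53.1% of the core UMIs, while the curves of Fabp4/Ly6c1-led cells rise slowly.

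Among granulocyte/monocyte progenitor-like cells, 1 HFD cell held 262 of the 493 core UMIs, where the next had 27. The same cell held 22 of the 32 HFD UMIs of Ifnb1, which encodes interferon beta, in a cell of 20943 UMIs. It had 109 UMIs of Rsad2, 63 of Ifit1 and 52 of Isg15, with 21 UMIs of progenitor, 7 of macrophage, 3 of plasmacytoid dendritic and 15 of conventional dendritic markers, and its doublet score was among the top 5% of its library. The remaining Ifnb1 UMIs lay in 4 ND and 4 HFD cells of the macrophage-like class, with 6 and 10 UMIs and at most 15 core UMIs in any of them. All 4 ND cells and 2 of the HFD cells held more UMIs of conventional dendritic than of macrophage markers, 328 to 2142 against 5 to 242, and the other two HFD cells 14 and 24 against 143 and 366. Without the 5 richest cells of each library 4 progenitor-like genes were called higher and 1 lower, and Rsad2, with 10.3 and 26 UPM and a ratio of 2.51 (1.88 to 3.39) with the cell, was at 0.516 (0.309 to 0.836) without the top cell of each library. Isg15 was at 2.5 (1.87 to 3.37) without its top cells. With finer clusters (resolution 1.0), the class had 0 genes called higher and 3 lower, and the log2 ratio of Isg15 went from 1.51 to -0.20. The share of all genes past the same fold is not given without the richest cells or with finer clusters. Parp14 and Xaf1, with 4 and 6 UMIs in any HFD cell, had ratios of 1.89 (1.16 to 3.12) and 2.05 (1.28 to 3.33).

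Upstream of these genes, interferon transcripts themselves were rare apart from Ifng. Of 21 ligand genes, only Ifng reached 50 UMIs, with 880 UMIs in ND and 496 in HFD, or 18.3 UPM in ND and 10.0 UPM in HFD over all kept cells. It stood at 677 UPM in ND and 476 UPM in HFD in NK cell-like cells and at 125 and 88.3 UPM in T cell-like cells, with ratios of 0.703 (0.608 to 0.813) and 0.706 (0.568 to 0.876). Mature B cell-like cells had 98 UMIs in ND and 33 in HFD, a ratio of 0.385 (0.251 to 0.577). Of these classes only the last passed 1.5-fold, as did the value over all kept cells, where the makeup of the libraries enters too. The part of T or NK cells or of their free RNA in the mature B cell-like value was not tested. Without their ND-rich cluster T cell-like cells had 33.2 and 37.9 UPM, a ratio of 1.14 (0.736 to 1.78). Ifnb1 had 6 UMIs in ND and 32 in HFD, 22 of the latter in the cell just described, and the 2 alpha interferon UMIs were of Ifna2, both in HFD.

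Of 6 receptor genes 1 was called lower over all kept cells and 0 higher (2.72% and 9.41% of all genes). Ifnar1 and Ifnar2, the chains of the type I receptor, stood at 43.7 and 41.5 and at 113 and 111 UPM over all kept cells, and Ifngr1 and Ifngr2 at 159 and 163 and at 50.6 and 45.2 UPM. Il10rb, a chain shared with interferon lambda, stood at 45.9 and 45.4 UPM. Among them, Ifnar2 was called higher in NK cell-like cells, at 56.5 UPM in ND and 92.1 UPM in HFD, and Ifngr1 in granulocyte/monocyte progenitor-like cells, at 160.3 UPM in ND and 250.2 UPM in HFD. Ifnlr1, the specific chain of the lambda receptor, had 125 UMIs in ND and 64 in HFD.

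Of 13 signal transduction genes none was called over all kept cells. The kinase genes Jak1, Jak2 and Tyk2 stood at 175 and 185, 32.8 and 31.3 and 9.44 and 8.1 UPM, and Stat3 at 80.9 and 84.7 UPM. The factors Irf2, Irf3, Irf5 and Irf8 stood at 99.5 and 105, 26.1 and 25.3, 42.8 and 39.2 and 109.5 and 100.6 UPM. The inhibitors Socs1, Socs3, Ptpn6 and Pias1 had 29.6 and 30.1, 118 and 129, 124 and 117 and 25 and 25.2 UPM. By class, 0 of 13 were called higher and 1 lower in monocyte-like (3.22% and 3.73% of all genes), 0 of 12 and 0 in mature neutrophil-like (2.79% and 5.64%) and 0 of 8 and 1 in Fabp4/Ly6c1-led cells (5.69% and 5.05%). Irf8 was called higher in macrophage-like cells, at 62 UPM in ND and 98.6 UPM in HFD, and, of the parts of that class described below, in the dendritic-like one, at 1.81 (1.27 to 2.64), with 1.31 (0.946 to 1.81) in the rest. Among 13 genes of nucleic acid sensing upstream of interferon, 0 of 11 and 0 of 5 were called higher in monocyte-like and mature neutrophil-like cells (3.22% and 2.79% of all genes), and Tbk1, the kinase that activates IRF3, was higher in B cell precursor-like cells, at 18.3 UPM in ND and 28.1 UPM in HFD.

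A wider list of 67 other interferon-stimulated genes, which shares 1 gene with the signalling list and none with the 42, had smaller median ratios in the 3 leading classes, a difference that was not tested. In monocyte-like cells 3 of 48 were called higher and 1 lower (3.22% and 3.73% of all genes), with a median log2 ratio of 0.19. Without the ND-rich cluster 6 of 45 were called higher and 0 lower (2.8% and 3.03% of all genes), with a median of 0.21. With all clusters the counts were 2 and 1 of 34 in mature neutrophil-like cells (2.79% and 5.64% of all genes), with a median of 0.13, and 5 and 1 of 25 in Fabp4/Ly6c1-led cells (5.69% and 5.05% of all genes), with a median of 0.25. In T cell-like cells 2 of 32 were called higher and 3 lower (4.22% and 4.5% of all genes). Without their ND-rich cluster 6 of 25 were called higher and 1 lower (4.25% and 5.41% of all genes). Eif2ak2, the kinase PKR that halts translation, was higher in monocyte-like and mature neutrophil-like cells, at 11.8 and 21.2 and at 8.46 and 16.1 UPM, ratios of 1.79 (1.3 to 2.49) and 1.9 (1.33 to 2.74), and the helicase gene Ddx60 in mature neutrophil-like cells, at 51 UPM in ND and 80.1 UPM in HFD. Ms4a4c was higher in T cell-like cells, at 41 and 77 UPM, Samhd1, a nucleotide hydrolase, in NK cell-like cells, at 71.7 and 112 UPM, and Slfn2 in B cell precursor-like cells, at 28.3 and 43.7 UPM. In mesenchymal-like cells the schlafen genes Slfn4, Slfn2 and Slfn1 were lower, at 18.9 and 6.32, 43.2 and 17.1 and 13.2 and 6.89 UPM. The 7 abundant neutrophil transcripts, among them S100a8 and Ngp, were also lower in the same mesenchymal-like cells, at 19722 and 9313 UPM in sum, with all 7 called lower (3.98% of all genes), and their part in the schlafen values was not tested. Ifi30, a lysosomal reductase, was lower in Fabp4/Ly6c1-led cells, at 98.7 and 40.4 UPM.

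Antigen presentation genes, which respond to either kind of interferon, had mixed directions. Of 17 class I genes 0 of 16 were called higher in monocyte-like, 0 of 15 in mature neutrophil-like and 1 of 16 in Fabp4/Ly6c1-led cells (3.22%, 2.79% and 5.69% of all genes). The proteasome gene Psmb9 was higher in macrophage-like cells, at 62 UPM in ND and 108 UPM in HFD. Of 7 interferon gamma-induced chemokine and class II genes, 4 of 5 were called higher in macrophage-like cells (4.49% of all genes). In monocyte-like cells 3 of 5 were called lower (3.73%), in immature neutrophil-like cells 4 of 5 (6.98%) and in Fabp4/Ly6c1-led cells 4 of 5 (5.05%). H2-Eb1, a class II chain, stood at 2185 UPM in ND and 3435 UPM in HFD in macrophage-like and at 223 and 120.0 UPM in monocyte-like cells, with H2-Ab1 at 309 and 174 UPM in the latter. Without the ND-rich monocyte-like cluster none of the 5 was called, with H2-Eb1 at 0.911 (0.788 to 1.05). The macrophage-like class held 77 ND and 118 HFD cells that formed a conventional dendritic-like cluster of their own when the interferon-stimulated genes were kept in the clustering, beside 93 and 91 other cells. H2-Eb1 stood at 5493 and 5566 UPM in the former and 452 and 894 UPM in the latter, ratios of 1.01 (0.973 to 1.06) and 1.98 (1.78 to 2.2). In the former 0 of 5 genes of the list were called higher, and in the latter 2 of 5. Psmb9 was called in neither part, at 1.45 (1.09 to 1.93) and 1.37 (0.912 to 2.07). Of the interferon-stimulated genes, 2 of 13 were called higher and 4 lower in the dendritic-like part (7.16% and 5.6% of all genes), and 1 of 11 and 0 in the rest (5.85% and 5.19%). The division was chosen after seeing the data. Fabp4/Ly6c1-led cells went from 753 to 277 UPM of Cd74, the class II chaperone, and from 126 to 36 UPM of H2-Aa. In immature neutrophil-like cells H2-Eb1, H2-Aa and Cd74 stood at 33.5 and 7.1, 48.6 and 13 and 195 and 73.5 UPM, ratios of 0.212 (0.165 to 0.27), 0.268 (0.222 to 0.322) and 0.377 (0.347 to 0.408), while H2-Aa and H2-Eb1 were higher in granulocyte/monocyte progenitor-like cells, at 10.3 and 23.4 and 7.68 and 11.9 UPM. Cd74 and the H2 class II genes are defining genes of B cells and dendritic cells, with 20751 and 21269.8 UPM of Cd74 in the mature B cell-like class, and the part of such cells or their free RNA in the low levels elsewhere was not tested. Cxcl10, a chemokine induced by interferon and by inflammatory signals, had 41 UPM in ND and 11.9 UPM in HFD in mature neutrophil-like cells, a ratio of 0.29 (0.216 to 0.384), against the direction of the type I genes in those cells.

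Other lists separated the libraries along with these genes. Of 22 immediate-early and heat-shock genes known to respond to tissue dissociation, 15 were called lower in HFD and 0 higher in monocyte-like cells, 11 and 0 in mature neutrophil-like and 16 and 0 in Fabp4/Ly6c1-led cells. Of all genes, 3.73%, 5.64% and 5.05% were called lower in these classes. Without the ND-rich clusters 13 of 22 were called lower in monocyte-like and 5 of 22 in mature neutrophil-like cells (3.03% and 4.69% of all genes), with 0 higher in either. In T cell-like cells 10 of 22 were called lower and 0 higher (4.5% and 4.22% of all genes). Without their ND-rich cluster 2 of 21 were called lower and 2 higher (5.41% and 4.25%). With all clusters, the sum of these 22 genes went from 23859 to 11578 UPM in monocyte-like, from 19069.8 to 12374 UPM in mature neutrophil-like and from 50008 to 29886 UPM in Fabp4/Ly6c1-led cells. B cell precursor-like cells, with a median of 0.23 for the interferon-stimulated genes, had 19 of 21 of the dissociation genes called lower (3.9% of all genes). Neutrophil transcripts were 17452 and 17054 UPM in sum in ND and HFD Fabp4/Ly6c1-led cells and 3545 and 2398 UPM in monocyte-like cells, in neither class higher in HFD. The 4 hemoglobin genes went from 262 to 427 UPM in Fabp4/Ly6c1-led and from 244 to 418 UPM in mature neutrophil-like cells, and were higher in sum in HFD in 10 of the 11 classes, the exception being granulocyte/monocyte progenitor-like cells. There they went from 1891 to 128 UPM, with all 4 called lower (3.58% of all genes). The erythroid marker Car1 was among the top 10 genes of that class. Whether erythroid cells entered the class unequally in the 2 libraries, and their part in its ratios, was not tested. In monocyte-like cells the median log2 ratio of the hemoglobin genes was 0.20 and, without the ND-rich cluster, 1.71. The part of dissociation and of free RNA in the interferon-stimulated levels was not tested, and diet, pooled animals, preparation and library cannot be told apart.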

How the data were processed

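Single-cell RNA-Seq was performed by the authors on periosteal cells of both diet groups. The deposited matrices hold UMI counts per gene and barcode, which the authors made with Cell Ranger 6.0.1 on mm10, per the submitters' processing notes. Following the study's methods, the limits for a cell were over 500 genes, under 8000 genes and under 20% mitochondrial UMIs. Merged cells were normalised with SCTransform (sctransform 0.4.2, S and G2M scores regressed) and clustered in Seurat 5.3.0 under R 4.3.3 (30 principal components, Louvain resolution 0.5), with the interferon-stimulated genes left out of the clustering genes. Clusters were named from marker lists, with limits set after the clusters were seen. UMIs were summed per class and library in Python 3.11.15 with pandas 2.3.3 and scipy 1.17.1, divided by the UMIs of the class and multiplied by 1000000.

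Intervals are exact Poisson for levels, exact conditional binomial for ratios, Clopper-Pearson for shares and Newcombe for differences of shares. They cover counting error only and say nothing of the spread between mice. Kept cells held 48106513 ND and 49411888 HFD UMIs, so a count of 0 in the ND monocyte-like class allows up to 3 of 5242041 UMIs. Ratios were computed for genes with at least 50 UMIs in a class, and a ratio of 1.5-fold in either direction was called. The ratio and interval code was tested on simulated data. Doublets called by Scrublet (scanpy 1.11.5) made up 0.149% of ND and 0.37% of HFD cells, too few to be used, and were kept; as an alternative the 5% of cells with the highest scores were removed. The alternatives were other UMI minimums, scalings, thinning, folds, pseudocounts, cell filters and clusterings; those leaving out the richest cells, clusters mostly of 1 library, the plasmacytoid or the conventional dendritic-like cells, and that weighting clusters equally, were chosen after seeing the data.

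The genes, lists and tests were chosen with earlier results of these data known. Values were given for the 10 genes with the most UMIs in every class, and in each class for the 3 highest and 3 lowest ratios past 1.5-fold among genes with at least 100 UMIs. From the pathway lists, at most 3 genes per class were named by the same limits; others were named to account for every gene and were chosen after their values were seen. Promoters came from RefSeq (GRCm38.p6, the build of mm10), and the first bases of 34 of 39 promoters of the set were found in the annotated transcripts. The values of 1 gene of the signalling list are not reported here.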

Additional observations from a re-analysis of the deposited data

Results flagged for a closer look

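Isg20 passed 1.5-fold in opposite directions in different classes. Its ratio of HFD over ND was 1.58 (1.28 to 1.963) in immature neutrophil-like cells, with 135 UMIs in ND and 255 in HFD, and 0.635 (0.471 to 0.857) in mesenchymal-like cells, with 96 UMIs in ND and 89 in HFD. The difference between the classes was not tested.

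Barcodes left out by the cell filter also carried the interferon-stimulated genes. The 285 ND barcodes had 693 UMIs of the 40 genes, or 1532 UPM (95% interval 1420.0 to 1650.3). The 412 HFD barcodes had 1298, or 2453 UPM (2322 to 2590.5). A count of 0 would have allowed up to 6.63 and 5.67 UPM, and kept cells had 1825 and 2253 UPM.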

How the results depend on the processing

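The median log2 ratio stayed between the medians of the single-gene bounds in all 151 combinations of class and alternative. Those bounds are wide for a median, so this is a weak check. The median kept its sign in every alternative in monocyte-like (range 0.36 to 0.66), mature neutrophil-like (0.20 to 0.44) and Fabp4/Ly6c1-led cells (0.44 to 0.73). It also did so in T cell-like (0.08 to 0.45), mature B cell-like (0.10 to 0.26) and B cell precursor-like cells (0.09 to 0.34). In NK cell-like cells it stayed negative (-0.66 to -0.01). The median changed sign at least once in immature neutrophil-like, granulocyte/monocyte progenitor-like, macrophage-like and mesenchymal-like cells. Counts of called genes depended more on the setting. For most of these settings the share of all genes past the same fold is not given. Whether a count below exceeds that share therefore cannot be read from it. With a minimum of 200 UMIs the number higher was 4 in mature neutrophil-like and Fabp4/Ly6c1-led, 1 in immature neutrophil-like, T cell-like, mature B cell-like and B cell precursor-like, 3 in granulocyte/monocyte progenitor-like, 9 in monocyte-like and 0 in macrophage-like, NK cell-like and mesenchymal-like cells and the number lower was 1 in immature neutrophil-like and 0 in T cell-like, mature B cell-like and mesenchymal-like cells. With a fold of 2 the number higher was 1 in mature neutrophil-like, 0 in immature neutrophil-like, T cell-like, mature B cell-like and B cell precursor-like, 4 in monocyte-like and Fabp4/Ly6c1-led and 3 in mesenchymal-like cells and the number lower was 0 in mature neutrophil-like, immature neutrophil-like, T cell-like, NK cell-like and mature B cell-like and 1 in mesenchymal-like cells. With each cell thinned to 1000 UMIs the number higher was 3 in mature neutrophil-like and Fabp4/Ly6c1-led, 1 in granulocyte/monocyte progenitor-like, T cell-like and B cell precursor-like, 5 in monocyte-like and 0 in macrophage-like and mesenchymal-like cells and the number lower was 0 in immature neutrophil-like, T cell-like, mature B cell-like and mesenchymal-like and 1 in monocyte-like cells. At resolution 1.0 the number higher was 0 in granulocyte/monocyte progenitor-like and 5 in mature B cell-like cells and the number lower was 0 in mature neutrophil-like and mature B cell-like and 3 in granulocyte/monocyte progenitor-like cells. Without clusters mostly of 1 library the number higher was 5 in T cell-like cells and the number lower was 0 in mature neutrophil-like and 2 in T cell-like cells. With ratios centred on the median of all genes the number higher was 5 in immature neutrophil-like and 1 in mature B cell-like cells and the number lower was 2 in NK cell-like cells. Without the 5 cells richest in core UMIs the number higher was 5 in immature neutrophil-like, 9 in monocyte-like, 0 in NK cell-like and 1 in mesenchymal-like cells and the number lower was 1 in granulocyte/monocyte progenitor-like and mesenchymal-like and 0 in mature B cell-like cells. With each cell weighted equally the number higher was 5 in T cell-like cells and the number lower was 5 in immature neutrophil-like, 2 in granulocyte/monocyte progenitor-like and macrophage-like, 0 in T cell-like and 1 in mesenchymal-like cells. With the genes kept in the clustering the number higher was 1 in macrophage-like and 5 in T cell-like cells and the number lower was 5 in immature neutrophil-like and 1 in mesenchymal-like cells. With clusters weighted equally in both libraries the number higher was 22 in monocyte-like and 7 in T cell-like cells and the number lower was 5 in immature neutrophil-like cells. With a minimum of 20 UMIs the number higher was 11 in granulocyte/monocyte progenitor-like, 6 in macrophage-like and T cell-like, 2 in NK cell-like and 8 in B cell precursor-like cells and the number lower was 1 in granulocyte/monocyte progenitor-like, B cell precursor-like and Fabp4/Ly6c1-led, 2 in macrophage-like, T cell-like and NK cell-like and 3 in mature B cell-like cells. With the highest doublet scores removed the number higher was 3 in granulocyte/monocyte progenitor-like, 5 in macrophage-like and 0 in NK cell-like cells and the number lower was 2 in granulocyte/monocyte progenitor-like and NK cell-like and 0 in T cell-like cells. Without the plasmacytoid dendritic-like cells the number lower was 1 in monocyte-like cells. Without the conventional dendritic-like cells the number higher was 1 in macrophage-like cells. At resolution 0.25 the number higher was 4 in mature B cell-like cells and the number lower was 1 in B cell precursor-like cells. The unthinned difference in share of cells with a core UMI was -10.5 percentage points in granulocyte/monocyte progenitor-like, -11.1 in NK cell-like, 2.42 in mature B cell-like and -2.15 in B cell precursor-like cells. In granulocyte/monocyte progenitor-like cells the log2 ratio of Isg15 was -0.20 (resolution 1.0), Rsad2 was -0.65 (doublets removed), -2.56 (resolution 1.0), -2.11 (without the 5 cells with the most core UMIs) and Ifi27l2a was -0.92 (each cell thinned to 1000 UMIs), -0.049 (resolution 1.0). The causes of these differences were not tested. Depth limits the rarer genes: 30 of 40 fell under 50 UMIs in NK cell-like cells. No paired analysis was possible because no barcode is assigned to a mouse, which also kept single mice from being left out.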
